A study of Mus musculus with 2 samples.

Results

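The genes of monoamine synthesis, storage, uptake and breakdown were followed in mouse samples labelled as dorsal root ganglion (DRG) neurons, as 9 genes read by 18 of the 56601 non-control probes on the array. The genes were Ddc, Dbh, Gch1, Slc18a1, Slc18a2, Slc6a2, Slc6a4, Maoa and Maob, and every non-control probe that the scanner files assign to one of them by gene name was taken. One sample came from Dock8-/- animals with the AND transgene (AND TCR Tg, a T cell receptor), labelled with a high level of the itch cytokine interleukin-31. It was set against a sample from Dock8+/- animals with the same transgene, labelled with a low level of that cytokine. Both were of the C57BL/6 strain, both carry the transgene, and neither is wild type at Dock8. Age, sex, the number of animals pooled and the means of isolating the neurons are not given in the sources used here. There was 1 array per genotype, so no difference below has a replicate check or a p-value. The gene set was chosen from the known chemistry with the processed intensities of these same 2 arrays in view, so its differences are a description.

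Monoamine transmitters are made from aromatic amino acids in a short chain of enzymes. Tyrosine hydroxylase or tryptophan hydroxylase adds a hydroxyl group with the help of tetrahydrobiopterin, and aromatic L-amino acid decarboxylase, the product of Ddc, then forms dopamine or serotonin. Vesicular transporters load the amine into vesicles, plasma membrane transporters take it back up after release, and monoamine oxidases in the outer mitochondrial membrane break it down. In mouse DRG, tyrosine hydroxylase marks a class of low-threshold unmyelinated touch neurons, whereas a full noradrenergic set of genes is typical of sympathetic neurons.

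The Dock8-/- array was the dimmer of the pair. The share of probes well above background was 50.7% for Dock8-/- and 56.9% for Dock8+/-, and the 75th percentile of processed intensity was 145.6 for Dock8-/- and 303.8 for Dock8+/-. Unless called unscaled, levels and differences below are log2 intensities relative to that percentile. The 17 sensory neuron markers were all measured on both arrays, with a median log2 difference (Dock8-/- minus Dock8+/-) of 0.00. Of these 17, 2 reached 2-fold upward and 1 downward, and their median was -1.84 on the scale of the spike-in transcripts. Transcripts of other cells were present too. The summed scaled signal of 10 fibroblast markers was 270.5 in the Dock8-/- sample and 975.4 in the Dock8+/- sample, and that of 12 macrophage markers was 40.2 in the Dock8-/- sample and 150.1 in the Dock8+/- sample. In such bulk RNA, fewer cells of a type and less RNA per cell cannot be told apart.

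Ddc had the largest difference of the 9 genes, and both of its probes were brighter in the Dock8-/- sample. At probe 1 the unscaled intensity was 1043 ± 104 for Dock8-/- and 188 ± 19.1 for Dock8+/-, with errors from the scanner's model. At probe 2 it was 39.5 ± 5.93 on the Dock8-/- array, against 4.66 on the Dock8+/- array, where it was not well above background. The Dock8-/- array was therefore the brighter one at both probes, although it was the dimmer array in general. Relative to the 75th percentile, the probe 1 level was 2.84 in the Dock8-/- sample and -0.69 in the Dock8+/- sample. The log2 difference was 3.53 ± 0.21 (SD from the scanner's error model for single spots), or 11.6-fold higher. The probe 2 signal was at least 4.75-fold higher, as a bound. On the log2 scale that bound was 2.25, and it was 1.08 with normexp background correction and 0.41, under the 2-fold size, on the scale of the spike-in transcripts. For such a bound the dim side is taken at its own signal or at that array's detection floor (the smallest signal that is well above background there), whichever is larger.

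The 2 Ddc probes read distant parts of the transcript. Probe 1 lies at chr11:11714166-11714225 and probe 2 at chr11:11776262-11776321 on the minus strand (mm9), 62.1 kb apart, starting at positions 1896 and 320 of the RefSeq transcripts NM_001190448 and NM_016672. Each is assigned to both of these transcripts, so the array does not tell the Ddc variants apart. The sequences are shown because purine-rich repeats marked many of the largest differences on these arrays. Capitals mark the longest run of A and G in the stretch shown. Probe 2 is given whole, and probe 1 by the first 30 of its 60 bases.
Ddc probe 1: gataggcttatAGAAAtagtttccagggca
Ddc probe 2: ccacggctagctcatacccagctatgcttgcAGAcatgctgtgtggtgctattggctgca

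Neither Ddc probe holds such a repeat. The longest purine run was 5 bases in probe 1 and 3 in probe 2, against a median of 6 over all probes and of 12 over the 256 probes that hold 4 or more GA or GAA units in a row. Of the 171 repeat probes measured on both arrays, 106 (62.0%) were higher in the Dock8-/- sample by a factor of 2 or more. In the order of differences over 18649 measured genes, Ddc was number 20. The 2 named genes next above it were Cd300lf (13.1-fold higher) and Mrgprg (11.7-fold higher), and the 2 next below were Cdcp1 (11.5-fold higher) and St6galnac1 (11.3-fold higher). All 4 of those were read by a probe with a purine repeat, whereas Ddc was not. With 2 arrays, nearness in this order is the only likeness of pattern that could be measured, over 1 difference per gene.

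**Figure D1:**
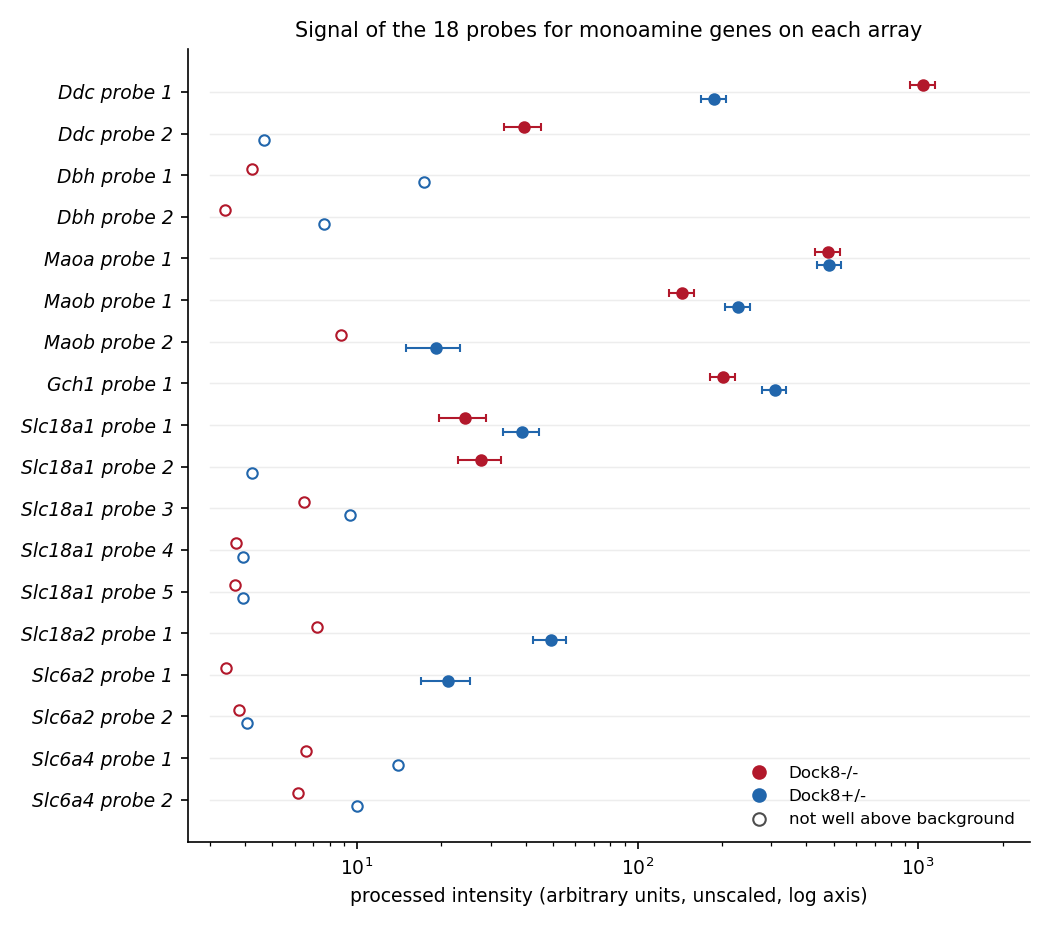
Unscaled processed intensity (log axis) of each of the 18 probes on the Dock8-/- array (red, upper point of each row) and the Dock8+/- array (blue, lower point), with bars for the scanner's error model SD where the spot was well above background; open points were not. Red lies to the right of blue at both Ddc probes and at Slc18a1 probe 2, and at or to the left of blue at the other 15 probes.

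Probes around Ddc did not share its difference. Within 300 kb of the Ddc probes lay 21 probes of 12 other names, of which 5 were measured on both arrays. Grb10, an adaptor of growth factor receptors and the nearest measured gene on one side, differed by 0.61, 0.01 and 0.09 on its 3 probes. On the other side Fignl1, an ATPase related to fidgetin, differed by 0.08 on the probe that was measured. The uncharacterised 4930512M02Rik differed by 0.65. Ikzf1, the lymphoid transcription factor Ikaros, was read on the Dock8+/- array only, on 4 probes. None of the 5 measured probes of other names was 2-fold apart.

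**Figure D2:**
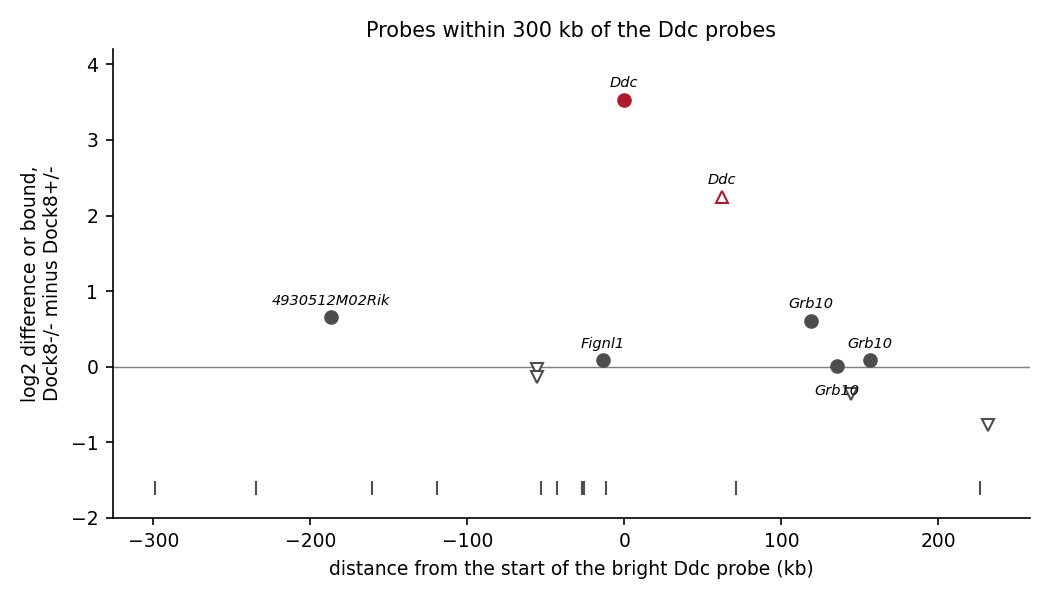
Log2 difference (Dock8-/- minus Dock8+/-) of probes against their distance in kb from the bright Ddc probe. Filled circles were measured on both arrays, open triangles are bounds, and ticks along the bottom mark probes with no value; the Ddc probes (red) stand at 3.53 and at a bound of 2.25, and the measured neighbours between 0.01 and 0.65.

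Of the enzymes that supply the cofactor and that act after the decarboxylase, Gch1 was less than 2-fold apart and Dbh could not be measured. Gch1 encodes GTP cyclohydrolase 1, the rate-limiting enzyme of tetrahydrobiopterin synthesis. Its single probe (chr14:47775348-47775407, mm9) had an unscaled intensity of 201.4 ± 20.4 in the Dock8-/- sample and 307.8 ± 31.0 in the Dock8+/- sample. After scaling the log2 difference was 0.45 ± 0.21, or 1.37-fold higher, below the 2-fold size. Dbh encodes dopamine beta-hydroxylase, which turns dopamine into noradrenaline inside vesicles. Its probe 1 read 4.22 on the Dock8-/- array, against 17.4 on the Dock8+/- array, and its probe 2 read 3.38 for Dock8-/- and 7.62 for Dock8+/-. Neither Dbh probe was well above background anywhere, so no fold is given. The whole of Dbh probe 1, at chr2:27037081-27037140 (mm9), is shown because the absence of a usable Dbh reading rests on it and on probe 2.
Dbh probe 1: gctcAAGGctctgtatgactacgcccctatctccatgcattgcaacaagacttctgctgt

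The vesicular transporters were dim on both arrays. Slc18a2 encodes VMAT2, the vesicular transporter of monoamine neurons, which platelets and mast cells also use. Its single probe (chr19:59370102-59370161, mm9) read 7.18 on the Dock8-/- array, not well above background, and 49.0 ± 6.66 on the Dock8+/- array. It was at least 1.46-fold lower in the Dock8-/- sample, a bound under the 2-fold size, whereas on the spike-in scale the log2 bound was -2.38. Slc18a1 encodes VMAT1, the form of chromaffin and other endocrine cells, and its 5 probes disagreed before scaling. Probe 1, for transcript NM_153054, read 24.2 ± 4.60 on the Dock8-/- array, against 38.9 ± 5.67 on the Dock8+/- array, a log2 difference of 0.38 ± 0.35. Probe 2, for ENSMUST00000142548, read 27.7 ± 4.85 on the Dock8-/- array, against 4.24 on the Dock8+/- array, at least 3.33-fold higher. This log2 bound of 1.74 was 1.07 with normexp, and there was none on the spike-in scale. The remaining 3 probes were dim on both arrays, and 1 of them, probe 3, is for the same RefSeq transcript as probe 1. After scaling both readable Slc18a1 probes were higher in the Dock8-/- sample, but only probe 2 by more than 2-fold, and the probes do not read the same transcripts.

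The probes behind these unlike readings lie apart on the minus strand of chromosome 8, at chr8:71561627-71561686 for Slc18a1 probe 1 and chr8:71589069-71589128 for probe 2 (mm9). They are shown by the first 30 bases with that of Slc18a2, and capitals again mark the longest purine run in the stretch shown. The run of 8 in Slc18a1 probe 2 was the longer one of the pair, but none of the 18 probes holds a GA or GAA repeat.
Slc18a1 probe 1: ctccaatttGGGAAAtatggcattcattct
Slc18a1 probe 2: aagtcAGGAAAAGtgaactccagatttaga
Slc18a2 probe 1: tttctgcttttGAGGcttcagtttcagtaa

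The transporters of the plasma membrane were at the limit of detection. Slc6a2 encodes the noradrenaline transporter of sympathetic neurons. Its probe 1 (chr8:95525166-95525225, mm9) read 3.41 on the Dock8-/- array, not well above background, and 21.1 ± 4.23 on the Dock8+/- array. The detection floor was 16.1 for Dock8-/- and 17.4 for Dock8+/-. Relative to the 75th percentile the floor stood at -3.17 for Dock8-/- and -4.13 for Dock8+/-, so that the Dock8+/- level of Slc6a2, at -3.84, lay under the Dock8-/- floor and no fold could be set. Slc6a2 probe 2 read 3.80 on the Dock8-/- array, against 4.04 on the Dock8+/- array. Slc6a4 encodes the serotonin transporter, also used by platelets. Its probes read 6.57 and 6.17 on the Dock8-/- array, against 14.0 and 9.995 on the Dock8+/- array, all under the limit for well above background. Relative to the 75th percentile, a difference in either transporter was not detectable at this signal. By its bound on the spike-in scale, however, Slc6a2 probe 1 was among the 6 monoamine probes at least 2-fold lower in the Dock8-/- sample.

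The monoamine oxidases were among the brighter probes of the group. Maoa encodes the form that prefers serotonin and noradrenaline, and Maob the form that prefers phenylethylamine. Both genes lie side by side on the X chromosome. The Maoa probe (chrX:16263318-16263377, mm9) read 477.4 ± 47.9 on the Dock8-/- array, against 483.2 ± 48.5 on the Dock8+/- array, nearly equal before scaling. Relative to each array's 75th percentile Maoa was 2.06-fold higher in the Dock8-/- sample, a log2 difference of 1.04 ± 0.20, which is within its error of the 2-fold size. Maob probe 1 (chrX:16286427-16286486) read 144.0 ± 15.0 on the Dock8-/- array, against 227.9 ± 23.2 on the Dock8+/- array, a scaled difference of 0.40 ± 0.21, or 1.32-fold higher. Maob probe 2 read 8.78 on the Dock8-/- array, not well above background, and 19.1 ± 4.12 on the Dock8+/- array. Relative to the 75th percentile this was too close to the floor for a fold. On the spike-in scale Maob probe 2 was, by its bound, among the 6 monoamine probes at least 2-fold lower in the Dock8-/- sample. The 2 Maob probes start at positions 2332 and 571 of the transcript, and each was the dimmer on the Dock8-/- array before scaling.

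Of the 18 probes, 5 were measured on both arrays, 2 on the Dock8-/- array only, 3 on the Dock8+/- array only and 8 on neither. The 5 measured probes stand for 5 of the 9 genes, namely Ddc, Maoa, Gch1, Maob and Slc18a1. Of these 5, Ddc and Maoa (2 genes) reached 2-fold upward in the Dock8-/- sample and 0 reached it downward. Over all 27734 probes measured on both arrays, 11.8% reached 2-fold upward and 7.06% downward. The median log2 difference was 0.45 over the 5 probes and 0.09 over all measured probes. Both probes read on the Dock8-/- array only had bounds past 2-fold upward, as had 99.4% of 956 such probes on the whole array, so this count says nothing about the monoamine genes. The 3 probes read on the Dock8+/- array only had 0 bounds past 2-fold downward, against 15.7% of 4467 such probes.

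Before any scaling, 3 of the 18 probes read brighter on the Dock8-/- array and the other 15 read dimmer. This count includes the surrogate values that the scanner program gives to dim spots, 6 for Dock8-/- and 5 for Dock8+/-. A direction between 2 such values is not a measured one. Among the 5 probes measured in both samples, only Ddc probe 1 was the brighter for Dock8-/-. Of all probes measured on both arrays, 10.3% were brighter on the Dock8-/- array, and the median unscaled ratio (Dock8-/- over Dock8+/-) was 0.508. The unscaled ratio of Ddc probe 1 was 5.55, a size that 22 of the 27734 measured probes reached. That of Maoa was 0.988 and that of Gch1 0.654. Among the genes with 2 probes measured on both arrays, the differences of the pair lay a median of 0.51 apart on the log2 scale, and 21.0% of 4238 such pairs lay at least 1 apart. The differences of Gch1, Maob and Slc18a1 probe 1 were smaller than that median.

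**Figure D3:**
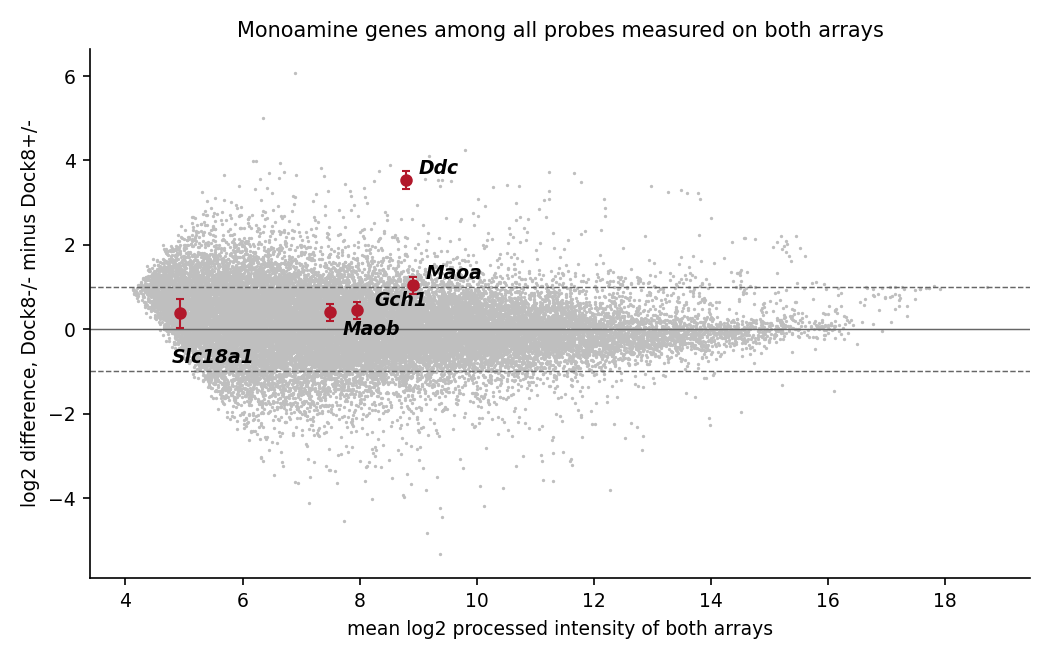
Log2 difference (Dock8-/- minus Dock8+/-) against the mean log2 processed intensity for all 27734 probes measured on both arrays (grey) and the 5 monoamine probes among them (red, with error model SD). Dashed lines mark 2-fold; Ddc stands at 3.53, rank 22 among all points, Maoa on the upper line at 1.04, and Gch1, Maob and Slc18a1 between 0.38 and 0.45.

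The related genes measured here all differed less than Ddc. Besides the 9 genes, 51 genes of related steps were listed, and 36 were measured on both arrays. Of these 36, 1 reached 2-fold upward in the Dock8-/- sample and 3 downward, with a median difference of -0.24, beside 0.03 over all 18649 measured genes. Over all measured genes 9.08% reached 2-fold upward and 7.03% downward. These shares were 5.36% and 11.4% under median scaling, 6.95% and 8.21% under loess, 3.76% and 4.63% with normexp background correction, and 0.311% and 87.0% on the scale of the spike-in transcripts. Th encodes tyrosine hydroxylase, which works directly before Ddc in dopamine synthesis. It read 1219 on the Dock8-/- array, against 4402 on the Dock8+/- array on its brightest probe, a difference of -0.79, and its other measured probe gave -2.06. Th and Ddc thus differed in opposite directions between these arrays, and on the spike-in scale Th lay at -2.63 while Ddc stayed above 0. The tryptophan hydroxylase genes Tph1 and Tph2, which open serotonin synthesis, were dim on both arrays, as was Pnmt, which makes adrenaline. Hdc, encoding histidine decarboxylase, differed by 0.39 and Aanat, of melatonin synthesis, by 0.40.

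The tetrahydrobiopterin genes lay mostly below 0, unlike Gch1. Of 7 genes, 6 were measured, 0 of them 2-fold higher and 1 more than 2-fold lower, with a median of -0.49. Gchfr, encoding the feedback regulator that restrains GTP cyclohydrolase 1, read 33.3 on the Dock8-/- array, against 226.5 on the Dock8+/- array, 3.26-fold lower. With normexp background correction its log2 difference was -0.68, which ends the call. Pts, encoding the next enzyme of that pathway, differed by -0.99 and Spr, encoding sepiapterin reductase, by -0.50. Qdpr, which recycles the cofactor, differed by 0.17, and by -0.06 under median scaling.

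Breakdown enzymes other than the monoamine oxidases also lay mostly below 0. Of 13 listed, 8 were measured and all 8 had a negative difference, with a median of -0.80. Aldh1a1, at -0.02, was the exception that turned positive, to 0.06, under another setting. Aldh2, the mitochondrial aldehyde dehydrogenase that clears the products of monoamine oxidase, was 2.19-fold lower on its brightest probe, and its 4 measured probes ranged from -2.14 to -0.24. Under median scaling Akr1b3 and Sult1a1 lay at -1.18 and -1.07, past the 2-fold size that they miss here. Among other transporters, 4 of 7 were measured, with 1 more than 2-fold lower and 0 higher. Slc18a3, encoding the vesicular transporter of acetylcholine and not of monoamines, read 207.2 on the Dock8-/- array, against 1127 on the Dock8+/- array, 2.61-fold lower. The low-affinity amine transporter genes Slc22a3 and Slc29a4 differed by -0.73 and -0.09, and the dopamine transporter gene Slc6a3 was dim on both arrays. Slc22a3 stood at 0.00 with normexp.

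Suppliers of cofactors and precursors showed no measured 2-fold difference, and of the decarboxylase relatives of Ddc only Gad2 did. All 8 genes of vitamin B6, copper and ascorbate supply were measured, with 0 at least 2-fold apart in either direction and a median of -0.01. Pdxk, encoding the kinase that activates vitamin B6 for Ddc and related enzymes, differed by 0.42. Of 4 genes of aromatic amino acid uptake, 3 were measured, 0 were 2-fold apart and the median was 0.14. Slc16a10 of that list was read on the Dock8-/- array only, at 21.4 against 15.2 before scaling, and was at least 2.58-fold higher by its bound. Of all 956 probes read on that array only, 99.4% had bounds past 2-fold upward, so passing that size says nothing about this gene. Of 5 decarboxylase genes of the same enzyme family, 1 was at least 2-fold higher. Gad2, which makes the inhibitory transmitter GABA, read 118.5 on the Dock8-/- array, against 108.1 on the Dock8+/- array, 2.29-fold higher after scaling, but its log2 difference was 0.89 with normexp background correction and 0.97 under median scaling. Gad1 differed by 0.40 and Csad, of taurine synthesis, by -0.02.

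**Figure D4:**
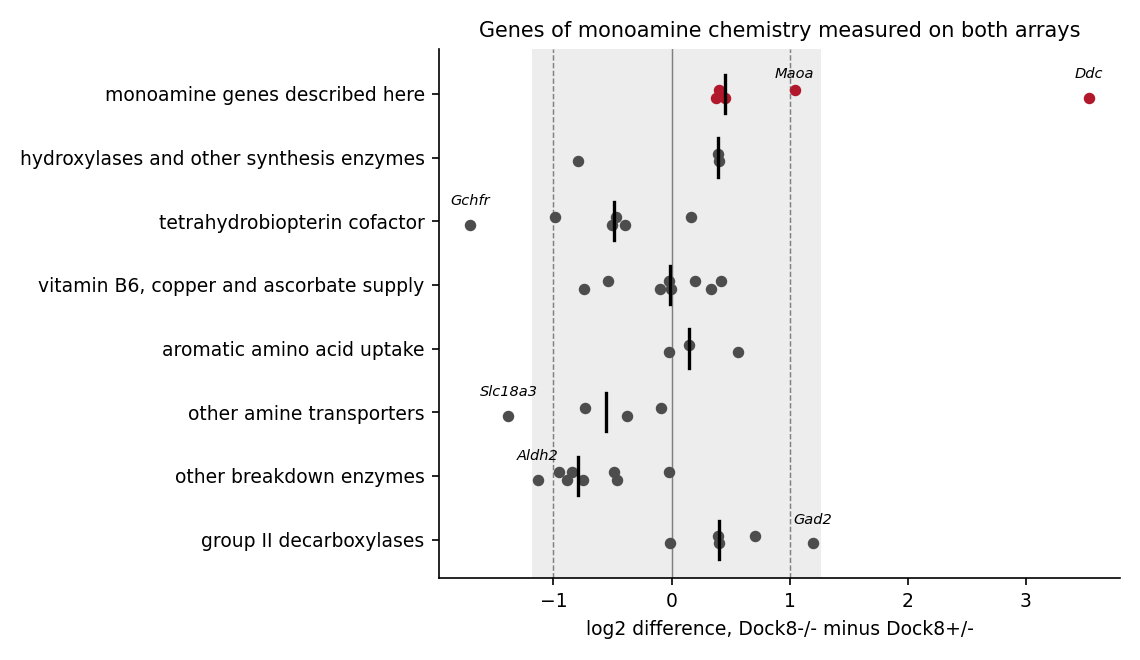
Log2 difference (Dock8-/- minus Dock8+/-) of each gene measured on both arrays, by list, with the list median as a black bar; the shaded band runs from -1.17 to 1.26, the 5th to 95th percentile of all measured genes, and dashed lines mark 2-fold. Ddc, at 3.53, lies outside the band on the right, Gchfr (-1.71) and Slc18a3 (-1.38) lie outside it on the left, and Hdc appears in both lists that hold it.

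Markers of cells that carry monoamine genes were read beside these values. Of the 16 sympathetic and chromaffin markers, 4 of which are monoamine genes described here, 7 were detected (well above background) on the Dock8-/- array, against 9 on the Dock8+/- array. Their summed scaled signal was 37.6 for Dock8-/- and 53.9 for Dock8+/-. Most of both sums came from Th, Chga and Chgb, which differed by -0.79, -0.82 and 0.08. Because Th also marks touch neurons of the DRG, the sums are not a measure of sympathetic cells alone. Phox2a and Hand2, transcription factor genes that mark these cells, were not detected on either array. Chrnb4, a nicotinic receptor subunit gene of that list, was 2.23-fold higher (0.83 on the log2 scale with normexp). Npy, encoding neuropeptide Y, was read on the Dock8-/- array only and was at least 7.28-fold higher by its bound. Bounds of such probes passed 2-fold upward in 99.4% of cases on the whole array. Of 7 serotonergic neuron markers, 2 were measured, Ddc itself and Lmx1b (0.60), and the defining genes Tph2 and Fev were dim on both arrays. The summed signal of that list, 8.50 in the Dock8-/- sample and 1.62 in the Dock8+/- sample, contains Ddc. The 6 markers of tyrosine hydroxylase neurons were all measured, with a median of -0.27 and 1 gene past 2-fold, downward. That gene, Tafa4, encodes a secreted protein of these neurons, was 2.27-fold lower and had a log2 difference of -0.34 with normexp.

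Markers of blood and connective tissue cells were read beside Slc18a2 and Slc6a2 probe 1, both detected on the Dock8+/- array alone. Mast cell markers had 4 of 12 genes detected for Dock8-/- and 8 for Dock8+/-, and the summed scaled signal was 3.40 for Dock8-/- and 8.88 for Dock8+/-. The 4 measured on both arrays had a median of 0.21 and 0 were 2-fold apart. Of the mast cell proteases, Mcpt4, Cma1 and Cpa3 were at least 27.9-fold, 19.6-fold and 6.27-fold lower by their bounds. The protease gene Tpsb2, measured on both arrays, differed by -0.35. Platelet markers had 2 of 11 detected for Dock8-/- and 6 for Dock8+/-, with sums of 1.44 for Dock8-/- and 16.1 for Dock8+/-, and Pf4, encoding platelet factor 4, was 21.9-fold lower. Of 9 measured fibroblast markers, 8 were at least 2-fold lower, and of 11 measured macrophage markers, 9. The part of any of these cells in the Slc18a2 and Slc6a2 readings was not tested.

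Spinal cord markers had a median difference of 1.15, which was -0.69 on the scale of the spike-in transcripts. Of 7 measured, 4 reached 2-fold upward and 1 downward, with summed scaled signals of 50.6 in the Dock8-/- sample and 12.6 in the Dock8+/- sample. Gfap, the astrocyte filament gene that satellite glia also use, was 8.42-fold higher and Slc1a2, a glutamate transporter gene of astrocytes, 3.79-fold higher, with log2 differences of 1.24 and 0.09 on the spike-in scale. Slc6a5, the glycine transporter gene of inhibitory interneurons, was 2.29-fold lower in the Dock8-/- sample (-0.91 on the log2 scale with normexp). Opalin, an oligodendrocyte gene, was detected on the Dock8+/- array alone, near the floor at 41.3. Olig2 of the same list was 2.22-fold higher, with log2 differences of 0.80 with normexp and -0.69 on the spike-in scale. Mog and Olig1 differed by 0.56 and 0.40. Of 9 satellite glia markers, 3 reached 2-fold upward and 1 downward, with sums of 776.0 for Dock8-/- and 573.4 for Dock8+/-. Their median was 0.43, and -1.41 on the spike-in scale. In the Dock8-/- sample the sums were 554.9 for Schwann cell, 28.4 for endothelial and mural, 1714 for sensory neuron, 1.64 for adipocyte and 1.73 for skeletal muscle markers. In the Dock8+/- sample they were 630.6, 34.6, 1746, 3.79 and 29.5 for the same lists in that order. The part of any of these cells in the Ddc difference was not tested.

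The scale on which the arrays are compared set the sign of 4 of the 5 measured differences, but not that of Ddc. Ddc probe 1 lay between 2.99 and 3.56 under 6 other settings and at 1.70, or above 0, on the scale of the spike-in transcripts, on which the median of all measured probes was shifted by -1.84. On that scale Maoa lay at -0.79, Gch1 at -1.39, Maob at -1.44 and Slc18a1 probe 1 at -1.46. Relative to the shift of -1.84 these values too lie above it, as the shift is the same for every probe. Maoa also missed the 2-fold size under median scaling (0.82) and with normexp background correction (0.81).

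**Figure D5:**
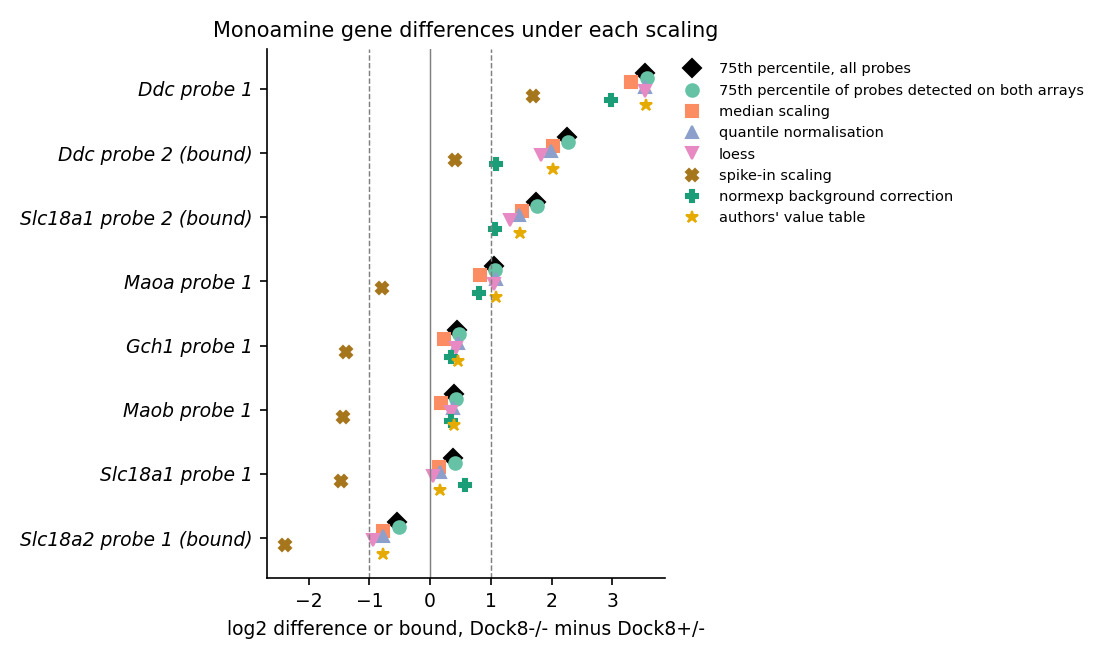
Log2 difference, or bound where 1 array was dim, of the 8 monoamine probes with such a value under the 75th percentile scaling used here (black diamonds). The same 8 probes are drawn under 7 alternatives. Dashed lines mark 2-fold; both Ddc probes lie above 0 under every setting drawn, Slc18a2 lies below 0 wherever it has a bound, and the spike-in scale (brown crosses) puts Maoa, Gch1, Maob and Slc18a1 probe 1 below 0.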

How the data were processed

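Total RNA was extracted with Isogen and labelled with Cy3, per the labels' protocols. The deposited scanner files give linear spot intensity from Agilent's Feature Extraction program (10.7.1.1 per the file headers, 9.5.1.1 per the submitters' processing notes), which detrends the signal and gives dim spots a surrogate value. The scanner files also hold deposited pixel counts, 0 or 1 flags scored as other, and background p-values, of which the flags were used. The deposited value table holds intensities with the mark of quantile normalisation: 98.9% of sorted values were equal in both columns (tolerance 0), the median was 27.9 in each, and 0 value columns were left unused. Its log2 values correlated with the scanner files at 0.999 or more, so scale and direction are known, with no centring seen.

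Here log2 processed intensity was averaged over a probe's spots, spots flagged as non-uniform were dropped (1 for Dock8-/-, 3 for Dock8+/-; 0 were saturated), and each array's 75th percentile was subtracted. A probe was measured when well above background on both arrays. A gene of a list took its brightest probe. Names of list genes came from RefSeq accessions or symbols of GRCm38.p6, used for names only; coordinates are those of the files (mm9), and exon annotation was not used. Scanner errors are those of the error model; replicated spots were nearly all brighter than the monoamine probes. Python 3.11.15, R 4.3.3 and limma 3.58.1 were used. Counting of measured differences was tested on simulated data in which only probes above the 75th percentile were changed, so bounds and dim probes were not tested. The 9 genes and all other gene lists were chosen with earlier results of these arrays known. Named genes were all 9, list genes at least 2-fold apart (up to 4 a list), defining markers, genes within 300 kb of Ddc and the genes next to Ddc in order; others were named after their values were seen. Alternatives were other scalings, normexp (offset 50), the value table, other filters on dim probes, removal of repeat probes and other fold sizes. Results for a few list genes are not reported here.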

Additional observations from a re-analysis of the deposited data

How the results depend on the processing

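No paired analysis was possible because neither genotype has a second array, which also leaves no replicate to drop. The number of arrays limits the precision, and signal over background limits 13 of the 18 probes. By measured value or bound, 4 of 18 probes were at least 2-fold higher and 0 lower; the spike-in scale gave 1 and 6, and 2 were lower with the weaker detection flag and also with no filter on dim probes. The other scalings, normexp, the authors' value table, removal of repeat probes and fold sizes of 1.5 and 3 kept the higher count within 1.5 times of 4. Ddc probe 1, at 3.53, moved to 3.31 under median scaling, 1.70 on the spike-in scale and 2.99 with normexp. Maoa turned to -0.79 on the spike-in scale. Of the 36 related genes, 1 higher and 3 lower became 0 and 8 under median scaling, 0 and 35 on the spike-in scale and 0 and 5 with normexp. Median and spike-in scaling shift all probes by construction (by -0.23 and -1.84); the cause was not tested for normexp. Of 47 other values of single probes, 17 stayed within 0.0637, the spot SD of a difference from replicated probes, and the others moved further. Those replicated probes were nearly all brighter, so 0.0637 is not the spot error of the monoamine probes. The error model SD of the measured ones ran from 0.20 (Maoa) to 0.35 (Slc18a1 probe 1). Maoa, Gch1, Maob and Slc18a1 probe 1 turned sign on the spike-in scale. Slc18a1 probe 2 had no bound on the spike-in scale, and Slc18a2 none with normexp. The mean of a gene's probes was not run, as no monoamine gene had over 1 measured probe.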
